A study of Mus musculus with 18 samples.

Results

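The snoRNA host genes described here are 8 mouse genes listed by symbol, Gas5, Snhg1, Snhg3, Snhg4, Snhg5, Snhg6, Snhg8 and Snhg12, out of 54446 genes with a row of read counts. Of the 8, 7 had a count row, and Snhg4 was not analysed here. The list is of symbols, with no threshold on a measured value. All 7 passed the filter on low counts in the libraries of the Ythdc1 experiment, where 17900 genes were tested. In the Mettl3 experiment 6 passed among 21802 genes tested, and Snhg3 did not, with 2 reads over all 6 libraries.

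Small nucleolar RNAs (snoRNAs) guide the chemical modification and processing of ribosomal and spliceosomal RNA, as C/D box RNAs that direct 2′-O-methylation or H/ACA box RNAs that direct pseudouridylation. In mammals most of them are not transcribed from genes of their own but are cut out of the introns of a host gene. The hosts treated here make no known conserved protein: the introns carry the functional RNAs, and the spliced exons form a long noncoding RNA. Spliced host RNAs of this kind are known for short lives. Those of GAS5 and SNHG1, for example, are known in human cells to be destroyed by nonsense-mediated decay once ribosomes reach them, and GAS5 accumulates in growth-arrested cells, from which its name derives. Many host genes begin with a 5′ terminal oligopyrimidine tract, a run of C and T letters at the transcription start that they share with ribosomal protein genes.

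RNA was taken from the nuclei of mouse embryonic stem cells of the C57BL/6 strain, in 9 groups of 2 libraries. The Ythdc1 groups were cells labelled cKO (conditional knockout) and control cells, each after 0, 3 and 6 h of actinomycin D at 5 µg/ml, a drug that stops transcription. The Mettl3 groups were the lines labelled KO1 and KO2 and a control line, with a time point of 0 h. Their sample descriptions give the same concentration of the drug. METTL3 is the catalytic subunit of the enzyme that places N6-methyladenosine (m6A) on RNA, and YTHDC1 binds that mark in the nucleus. The 18 samples all share the strain, 48 h of culture, and a medium with LIF, CHIR99021 and PD0325901. ERCC spike-in RNA was added to all of them before ribosomal RNA was depleted. The labels do not give the driver or timing of the Cre behind the cKO, nor how KO1 and KO2 were derived, and do not say whether the 2 libraries of a group are separate cultures. The spread behind each p-value is therefore that between libraries and may be technical.

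Gene reads numbered 4950973 to 19208935 per library in the Ythdc1 experiment and 20444256 to 30989044 in the Mettl3 experiment. Host genes took 0.0211% to 0.0939% of gene reads in the Ythdc1 libraries and 0.0573% to 0.0790% in the Mettl3 libraries. All 8 markers of embryonic stem cells were detected in every group. Ythdc1 itself averaged 131.8 ± 16.1 CPM in cKO and 138.5 ± 9.31 CPM in control libraries at 0 h (SD, n = 2 each), so the targeted RNA was not called lower before the drug by TMM (log2 fold change -0.07 ± 0.079, adjusted p = 0.557), though it was when scaled to spike-in reads (-0.44, adjusted p = 2.49e-05). After 3 h it was at 14.5 and 15.3 CPM in cKO libraries, against 51.9 and 50.3 CPM in control libraries, a log2 fold change of -1.78 by TMM but of 0.21 scaled to spike-in reads. After 6 h it was lower in cKO on both scales, at -1.38 by TMM and -1.81 scaled to spike-in reads. Mettl3 was at 32.6 and 31.3 CPM in KO1, 22.7 and 22.1 CPM in KO2, and 36.6 and 31.9 CPM in control libraries. It was called lower in KO2 (-0.61, or -0.05 and not called when scaled to spike-in reads) and not in KO1 (-0.10). These counts do not show whether the proteins were lost, and the groups keep the names of the labels. CPM are reads relative to the library's total of gene reads, scaled by TMM, which sets each value relative to the typical gene of its library. Called means an adjusted p below 0.05 from edgeR's quasi-likelihood test, with Benjamini-Hochberg adjustment over all genes tested, and every adjusted p below comes from that test.

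The 7 counted hosts carried 29 entries annotated as snoRNA genes inside their span and on their strand, some of them overlapping: 10 in Gas5, 8 in Snhg1, 5 in Snhg12, 2 each in Snhg3 and Snhg5, and 1 each in Snhg6 and Snhg8. Of these, 26 lie wholly inside an exon of their host in the annotation, because it includes transcripts whose exons run over the introns. All 26 had 0 reads in all 18 libraries. Reads there overlap host and snoRNA alike, and reads that overlap more than 1 gene stand in a separate row of the deposited counts. A count of Gas5, Snhg1, Snhg5, Snhg8 or Snhg12 is thus taken from the parts of the exons that hold no snoRNA. It includes introns wherever an annotated transcript covers them. Transcripts annotated as retained-intron were 20 of 25 in Gas5, 14 of 18 in Snhg1 and 0 of 10 in Snhg12. The nested snoRNAs with reads were Snora73b and Snora73a in Snhg3, and Snord87 in Snhg6.

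The letters around the transcription starts were searched for the C and T run for which many hosts are known. RefSeq starts on the GRCm38.p6 assembly were found for 6 of the 8 members, 7 starts in all because Gas5 has 2. A run of at least 5 C or T letters touching the 10 bases around the start was present at 5 of the 7 starts, and at 31.4% of all 32851 annotated mouse starts. The run crosses the start at 3 of the 7, the second start of Gas5, Snhg8 and Snhg12, and begins at base 3 of the transcript in Snhg3 and base 5 in Snhg1. The first Gas5 start and the Snhg5 start have none in that range, although the Snhg5 transcript has the run ttctttt just past it. TATAAA or TATATA on the gene's strand, beginning 45 to 20 bases before the start, was present at 4 of the 7 starts and at 2.96% of all starts. The sequences cover 90 bases, 40 before the start and 50 from it on, at the 4 starts where the run is longest and at the Snhg5 start, which has no such run. Capitals mark the C or T run and the TATA letters. They lie at chr1:161035126-161035215 (plus strand, the second start of Gas5), chr19:8723447-8723536 (plus strand), chr4:132308638-132308727 (plus strand), chr3:123508287-123508376 (minus strand) and chr9:88522848-88522937 (minus strand).
Gas5: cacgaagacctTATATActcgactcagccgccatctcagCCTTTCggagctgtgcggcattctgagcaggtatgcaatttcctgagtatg
Snhg1: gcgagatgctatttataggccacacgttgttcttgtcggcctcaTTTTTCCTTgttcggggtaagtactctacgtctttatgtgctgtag
Snhg12: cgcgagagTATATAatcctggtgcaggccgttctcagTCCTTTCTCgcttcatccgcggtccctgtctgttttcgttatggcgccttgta
Snhg8: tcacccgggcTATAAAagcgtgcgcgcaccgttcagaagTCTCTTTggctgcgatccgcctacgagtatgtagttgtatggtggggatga
Snhg5: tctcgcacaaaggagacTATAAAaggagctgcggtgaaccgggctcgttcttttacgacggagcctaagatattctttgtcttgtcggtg
Gas5 and Snhg12 share the letters CCTTTC in that run, which spans 6 bases in Gas5, 7 in Snhg8, and 9 in both Snhg1 and Snhg12. These matches describe the letters only.

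Before the drug, nuclear levels compared per length of counted exon were highest for Snhg3 and Gas5. In control libraries Snhg3 stood at 119 ± 9.61 CPM per kb and Gas5 at 118 ± 6.13 CPM per kb (SD, n = 2 each), with Snhg1 at 69.1 ± 3.47, Snhg6 at 57.8 ± 2.58, Snhg5 at 57.7 ± 0.997, Snhg12 at 44.1 ± 3.36 and Snhg8 at 27.0 ± 4.68 CPM per kb. Snhg3 and Gas5 did not differ beyond their spread, and neither did Snhg6 and Snhg5. At 6 h the order had changed, with Snhg6 first at 41.4 ± 2.82 CPM per kb and Snhg8 at 26.8 ± 7.46. Gas5, Snhg3 and Snhg1 lay between 19.5 and 24.5 CPM per kb. The counted length takes in introns around the snoRNAs in Gas5, Snhg1, Snhg5, Snhg8 and Snhg12. It does not in Snhg6, nor around Snora73b in Snhg3, so the order compares unlike parts of these RNAs. The part of this in the order was not tested.

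**Figure D1:**
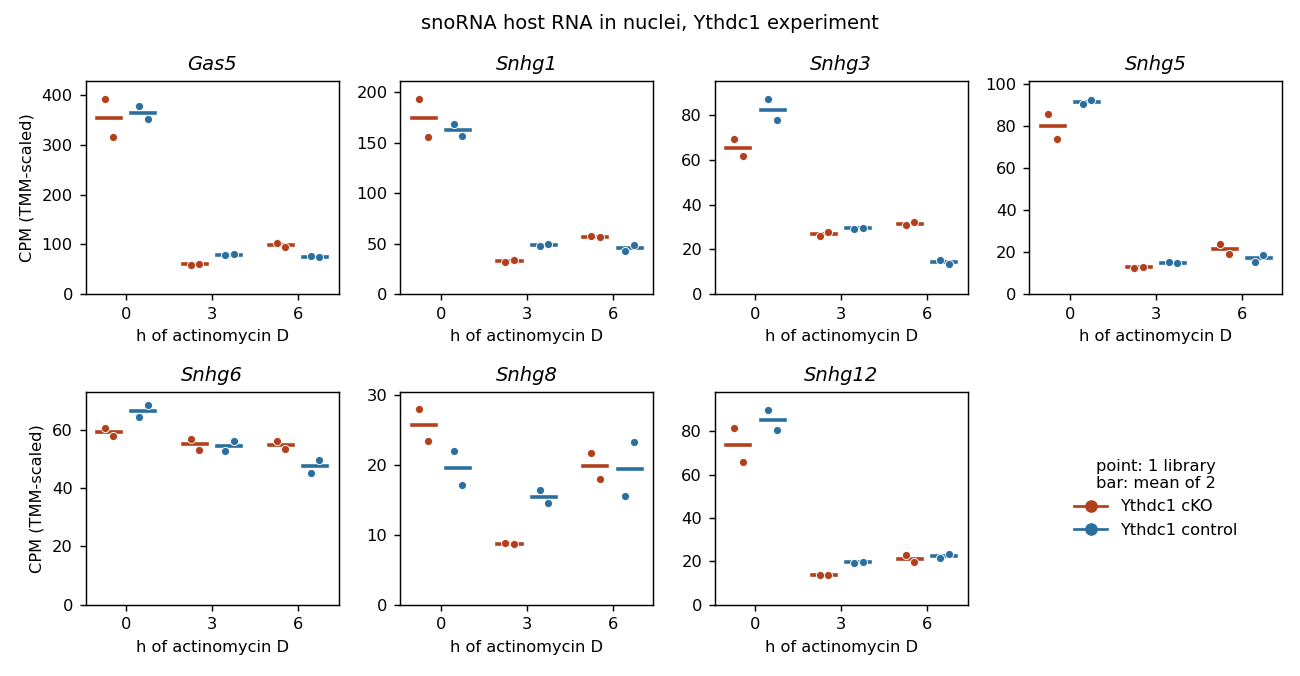
Level of each snoRNA host RNA in the 12 Ythdc1 libraries: TMM-scaled CPM (vertical axis, from 0) against h of actinomycin D, with cKO left of control at each time, each point 1 library and each bar the mean of 2. Gas5, Snhg1, Snhg5 and Snhg12 drop steeply by 3 h in both genotypes, Snhg6 stays between 45.2 and 68.3 CPM, and Snhg3 is at 31.0 and 32.1 CPM in cKO at 6 h, against 15.1 and 13.5 CPM in control.

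The first question is how the cKO differed from control before transcription was stopped, at 0 h. Relative to the typical gene, 1 host was higher (13.5% of all genes tested were called higher) and 1 was lower (15.8% called lower). Snhg3, host of the H/ACA snoRNAs Snora73a and Snora73b, was at 69.3 and 61.8 CPM in cKO libraries and at 87.1 and 77.7 CPM in control libraries. Both cKO libraries lay below both controls, and the log2 fold change was -0.33 with an SE of 0.087 (adjusted p = 0.00361). The call was lost without cKO replicate 2 (-0.26, adjusted p = 0.0724) and without control replicate 1 (-0.26, adjusted p = 0.0911). Snhg8, host of the H/ACA snoRNA Snora24, had 28.01 and 23.3 CPM in cKO libraries, against 21.9 and 17.1 CPM in control libraries. Its groups did not overlap either, yet its call was near the threshold (0.41 ± 0.156, adjusted p = 0.0444) and was lost without cKO replicate 1 (0.27, adjusted p = 0.334), without control replicate 2 (0.22, adjusted p = 0.471), without either cKO 3 h library (adjusted p = 0.0589 and 0.0590) and with DESeq2 (adjusted p = 0.142).

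The other 5 did not pass this test. Gas5, host of C/D snoRNAs such as Snord47 and Snord80, was at 392 and 315 CPM in cKO libraries and at 379 and 352 CPM in control libraries. Its cKO libraries spanned the controls, and the log2 fold change was -0.05 ± 0.072. Snhg1, host of Snord22 among others, was at 193 and 155 CPM in cKO libraries, against 168 and 156 CPM in control libraries. Snhg5, Snhg6 and Snhg12 had log2 fold changes of -0.20, -0.16 and -0.21, with adjusted p-values of 0.0943 to 0.144. Without cKO replicate 1 the log2 fold changes were lower, at -0.21 for Gas5, -0.31 for Snhg5 and -0.37 for Snhg12. Without cKO replicate 2 that of Snhg1 was 0.24. Scaled to spike-in reads in place of TMM, 6 of 7 hosts were lower in cKO (42.3% of all genes were), by -0.27 to -0.70 on the log2 scale, beside a median of -0.35 for all genes. Snhg8 was the exception, at 0.04. On that scale Snhg3, at -0.70, again had the lowest value of the 7.

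Control cells were followed through the drug to see which RNA was lost from nuclei. Relative to the typical gene, 6 of 7 hosts fell by 3 h (27.1% of genes were called lower and 29.3% higher) and 6 of 7 by 6 h (31.7% lower and 33.1% higher). Gas5 was at 379 and 352 CPM at 0 h, 77.8 and 80.6 CPM at 3 h, and 76.6 and 74.7 CPM at 6 h. It fell by 2.20 ± 0.076 on the log2 scale within 3 h (adjusted p = 1.46e-21), and the log2 fold change at 6 h was -2.27 ± 0.078, so nearly all of its drop relative to other genes came in the first interval. The median of all genes under TMM was 0.07 at 3 h and 0.03 at 6 h.

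Snhg5, host of the C/D snoRNAs Snord50a and Snord50b, had the steepest early drop. It was at 90.4 and 92.6 CPM at 0 h, 15.1 and 14.8 CPM at 3 h, and 15.5 and 18.7 CPM at 6 h. At 3 h this was 16.3% of its starting level relative to the typical gene, and 2.99% of the genes tested had a lower fold change. Snhg12, host of Snord99, Snora16a, Snora44 and Snora61, kept 23.0% at 3 h and 26.3% at 6 h. Snhg1 kept 30.1% at 3 h and 28.3% at 6 h. These 4 hosts, Gas5 included, share one course in control cells, a steep fall and then a level close to that of 3 h. Their counts take in introns around the snoRNAs, as do those of Snhg8, while those of Snhg6 do not and those of Snhg3 do in part. Loss of unspliced and of spliced host RNA cannot be told apart in these counts.

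The other 3 hosts followed other courses. Snhg3 kept less at 6 h than at 3 h in control cells, a step not tested on its own: it was at 87.1 and 77.7 CPM at 0 h, 29.3 and 29.6 CPM at 3 h, and 15.1 and 13.5 CPM at 6 h, or 35.8% and then 17.3% of its start. Snhg6, host of Snord87, lost little, with 64.2 and 68.3 CPM at 0 h, 52.6 and 56.0 CPM at 3 h, and 45.2 and 49.8 CPM at 6 h. Its log2 changes of -0.29 ± 0.081 at 3 h and -0.48 ± 0.085 at 6 h were called, the first not without control 0 h replicate 2 (-0.24, adjusted p = 0.0613). Snhg8 had 21.9 and 17.1 CPM at 0 h, 16.3 and 14.5 CPM at 3 h, and 15.6 and 23.2 CPM at 6 h, and neither time passed the test (adjusted p = 0.0767 and 0.905), although the 3 h change was called with the DESeq2 size factors (-0.39, adjusted p = 0.0369), library size alone, spike-in scaling or 50 reads in 2 libraries, and without control 0 h replicate 2 (-0.51, adjusted p = 0.0243). Its 6 h libraries overlapped those of 0 h.

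TMM hides a loss shared by all genes. Scaled to spike-in reads, all 7 hosts fell at both times (51.1% and 63% of all genes were called lower). Gas5 kept 15.1% of its starting reads per spike-in read at 3 h and 10.97% at 6 h, Snhg5 11.3% and 9.95%, and Snhg3 24.9% and 9.18%. Snhg6 kept 56.8% and 37.9%, and Snhg8 55.4% and 53.7%. The median of all genes on this scale was -0.46 log2 units at 3 h and -0.88 at 6 h, so Snhg8 lost at 6 h about what the median gene lost. Reads outside annotated genes moved with the drug too, at 50.1% and 49.7% of uniquely placed reads in control libraries at 0 h, 24.5% and 23.2% after 3 h, and 21.06% and 21.02% at 6 h. Reads that overlap more than 1 gene also moved, given as a percentage of these and gene reads together. In control libraries they were 5.83% and 5.32% at 0 h, 7.39% and 7.43% after 3 h, and 12.8% and 13.0% at 6 h. The part of either kind of read in the host changes was not tested.

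In cKO cells the 7 hosts gave 6 called lower at 3 h (29.8% of genes were called lower and 29.6% higher) and 6 at 6 h (31.3% lower and 29.6% higher). Gas5 was at 392 and 315 CPM at 0 h, 58.9 and 60.4 CPM at 3 h, and 102 and 94.0 CPM at 6 h. It kept 16.9% at 3 h and 27.6% at 6 h, so its level relative to other genes was lowest at the middle time. Snhg1 kept 19.0% and 32.5%, Snhg5 15.9% and 25.6%, and Snhg12 18.7% and 28.2%. Snhg3 was at 69.3 and 61.8 CPM at 0 h, 25.9 and 27.8 CPM at 3 h, and 31.0 and 32.1 CPM at 6 h. It kept 41.1% and 48.4%.

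Snhg8 was at 28.01 and 23.3 CPM in cKO libraries at 0 h, 8.84 and 8.61 CPM at 3 h, and 21.6 and 17.9 CPM at 6 h. It fell to 34.0% at 3 h (log2 -1.56 ± 0.164, adjusted p = 6.54e-10) and stood at 74.7% at 6 h (-0.42 ± 0.160, adjusted p = 0.0233). The 6 h call was lost without cKO 0 h replicate 1 (-0.28, adjusted p = 0.219) and without cKO 6 h replicate 2 (-0.25, adjusted p = 0.370), and with DESeq2 (adjusted p = 0.0623). Snhg6 kept 92.7% and 92.0%, and passed the test at neither time (adjusted p = 0.258 and 0.233), but did at both with a filter of 50 reads (-0.23 and -0.19).

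The cKO libraries of 3 h stand apart on the spike-in scale. Their spike-in reads came to 277 and 272 CPM of gene reads, without TMM, against 1098 and 1103 in control libraries of 3 h, 1013 and 961 in cKO libraries of 0 h, and 1846 and 1889 in cKO libraries of 6 h. Scaled to these reads, 4 hosts were lower in cKO at 3 h than at 0 h (2.69% of all genes were called lower) and 2, Snhg3 and Snhg6, were higher (83.8% called higher), beside a median of 1.86 for all genes. The cause was not tested. At 6 h all 7 fell on the spike-in scale (68.4% of all genes did), and kept 13.1% to 46.9% of the level at 0 h.

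**Figure D2:**
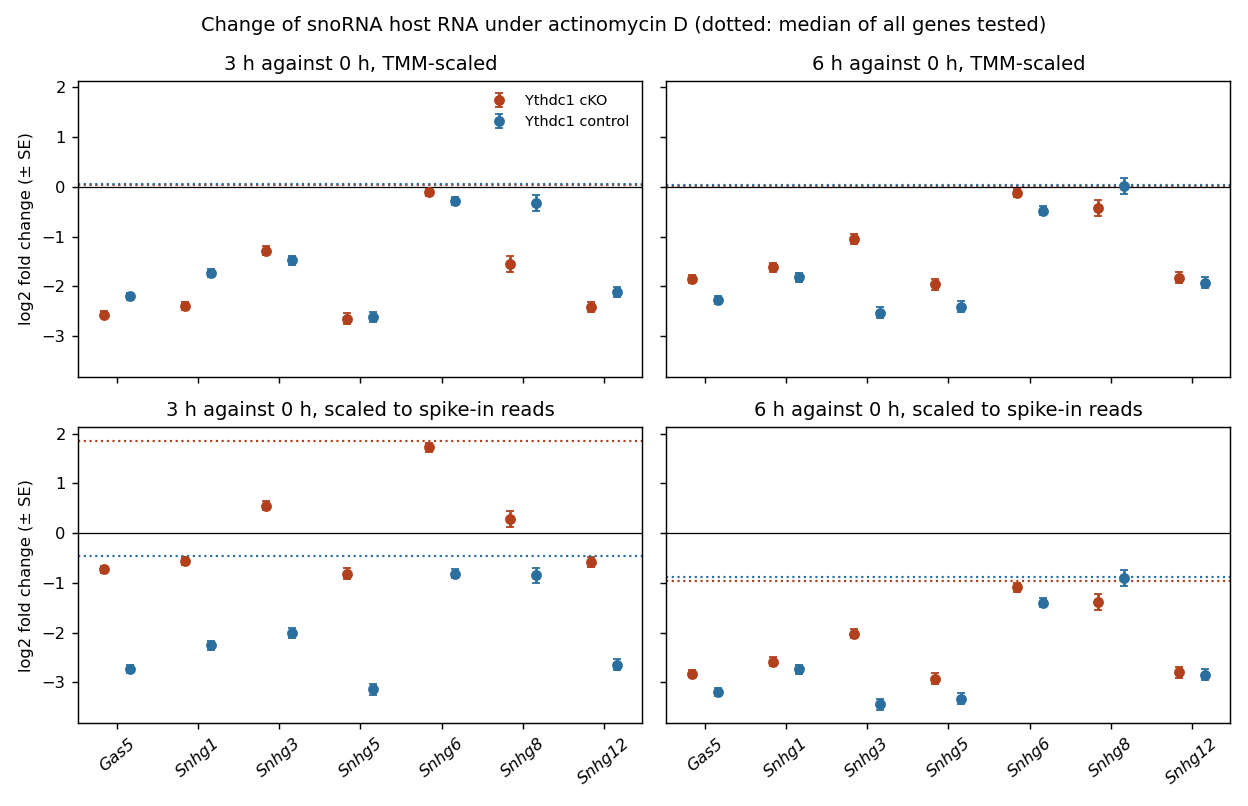
Log2 fold change (vertical axis, points with SE, n = 2 libraries per group) of each host at 3 h (left) and 6 h (right) against 0 h, in cKO and in control libraries. The upper panels are scaled by TMM and the lower panels to spike-in reads; dotted lines give the median of all genes tested, which is 1.86 in cKO at 3 h on the spike-in scale. Gas5, Snhg1, Snhg5 and Snhg12 lie far below the median in every panel. Snhg6 lies near it in cKO and below it in control, where it is at -0.48 by TMM at 6 h, beside a median of 0.03.

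Whether the genotypes lost host RNA to different extents was tested as a decay difference, the log2 change from 0 h in cKO minus that in control. At 3 h, 3 of 7 hosts had a negative difference, a steeper fall in cKO relative to the typical gene (8.39% of genes were called lower and 11% higher). Snhg8 differed most, at -1.23 ± 0.227 (adjusted p = 0.000138), then Snhg1 at -0.67 ± 0.119 (adjusted p = 7.14e-05) and Gas5 at -0.36 ± 0.105 (adjusted p = 0.0127). The Gas5 call was lost without cKO 0 h replicate 1 (-0.20, adjusted p = 0.160), cKO 3 h replicate 1 (-0.34, adjusted p = 0.0605) or control 0 h replicate 2 (-0.31, adjusted p = 0.0797). Snhg3, Snhg5, Snhg6 and Snhg12 lay between -0.30 and 0.20 and were not called. Scaled to spike-in reads all 7 were positive and called (89.4% of all genes were called higher), from 1.13 for Snhg8 to 2.56 for Snhg3, beside a median of 2.36. That scale shifts all genes by about the same amount, so it bears on the level of these differences and not on the order of the hosts.

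At 6 h the difference was positive and called for 4 of 7 hosts, a smaller loss in cKO (9.77% of genes were called higher and 9.35% lower). For Snhg3 it was 1.48 ± 0.145 (adjusted p = 1.08e-09), above that of 96.8% of all genes tested. Leaving out each library in turn did not end that call. Gas5 followed with 0.41 ± 0.108 (adjusted p = 0.00568), Snhg5 with 0.45 ± 0.156 (adjusted p = 0.0392) and Snhg6 with 0.36 ± 0.122 (adjusted p = 0.0328). The calls of Snhg5 and Snhg6 were each lost in 5 of the 12 fits with a library left out, with adjusted p-values of up to 0.187 and 0.134. DESeq2 did not call Snhg5 either. Snhg1 (0.20), Snhg12 (0.10) and Snhg8 (-0.44) were not called. Scaled to spike-in reads, where the median of all genes was -0.09, Snhg3 at 1.43 and Gas5 at 0.36 remained called (7.52% of all genes were called higher), while Snhg5 at 0.40 (adjusted p = 0.0837) and Snhg6 at 0.31 (adjusted p = 0.0942) did not.

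Set directly against control, cKO libraries of 3 h were lower in 4 of 7 hosts (20.7% of genes were called lower and 22.3% higher). Snhg8 was at 8.84 and 8.61 CPM in cKO libraries, against 16.3 and 14.5 CPM in control libraries (-0.82 ± 0.165, adjusted p = 0.000121). Snhg1 was at 31.9 and 34.1 CPM in cKO, against 47.6 and 50.03 CPM in control (-0.56 ± 0.089, adjusted p = 2.71e-06). Snhg12 was at 13.6 and 13.9 CPM in cKO, against 19.5 and 19.6 CPM in control (-0.51 ± 0.117, adjusted p = 0.000507), and Gas5 had a log2 fold change of -0.41 ± 0.077 (adjusted p = 5.58e-05). In each of the 4, both cKO libraries lay below both controls, an order whose share among all genes was not counted. Snhg6 was level, at 0.01 ± 0.080. With spike-in scaling the direction turned round and all 7 were higher in cKO (93.3% of all genes were), beside a median of 2.00.

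At 6 h, 3 of 7 hosts were higher in cKO than in control (19.7% of genes were called higher and 22.7% lower). Snhg3 was at 31.0 and 32.1 CPM in cKO libraries and at 15.1 and 13.5 CPM in control libraries, 2.22-fold higher in cKO (log2 1.15 ± 0.116, adjusted p = 1.91e-10). Gas5 was at 102 and 94.0 CPM in cKO, against 76.6 and 74.7 CPM in control (0.37 ± 0.080, adjusted p = 0.000369). Snhg1 was at 57.1 and 56.3 CPM in cKO, against 42.7 and 48.7 CPM in control (0.30 ± 0.093, adjusted p = 0.00791). That last call was lost without cKO 6 h replicate 2 (0.31, adjusted p = 0.0680) and without control 6 h replicate 1 (0.21, adjusted p = 0.124). On the spike-in scale Snhg3 alone was higher (0.73 ± 0.118; 6.59% of all genes were called higher) and Snhg6, Snhg8 and Snhg12 were lower (46.5% called lower), beside a median of -0.44. Snhg3 is thus the 1 host higher in cKO at 6 h on both scales, and the 1 host called lower in cKO at 0 h on both.

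Other RNA differed between the genotypes as well. The 8 mitochondrial mRNAs, a sign of cytoplasm in a nuclear fraction, summed at 0 h to 11007 to 11114 CPM in cKO and 8384 to 8889 CPM in control libraries, at 3 h to 6361 to 6602 CPM in cKO and 4729 to 6309 CPM in control, and at 6 h to 8260 to 8300 CPM in cKO and 2337 to 2350 CPM in control. The 4 markers of 2-cell-like cells, all detected in every group, summed at 0 h to 95.4 to 106 CPM in cKO and 38.6 to 41.5 CPM in control, at 3 h to 86.3 to 88.2 CPM in cKO and 32.2 to 36.7 CPM in control, and at 6 h to 74.8 to 83.6 CPM in cKO and 29.03 to 29.5 CPM in control. Both sums were higher in every cKO library than in either control at each time. The part of these RNAs in the host results was not tested.

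**Figure D3:**
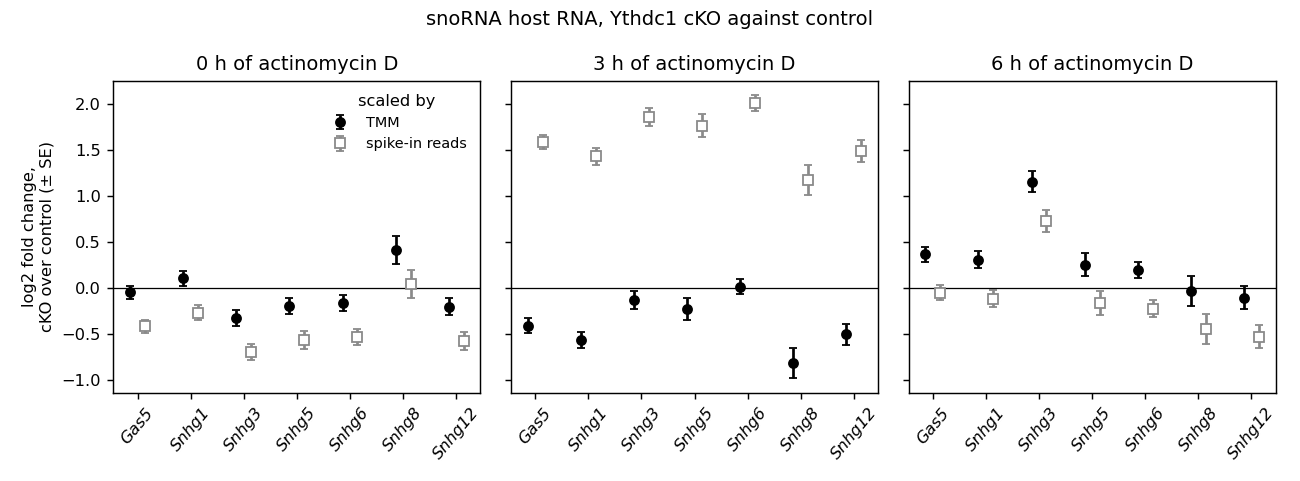
Log2 fold change of each host in cKO over control (vertical axis, points with SE, n = 2 libraries per group) at 0, 3 and 6 h of actinomycin D, scaled by TMM (filled circles) or to spike-in reads (open squares). The 2 scales part most at 3 h, where every spike-in value lies above 1, and Snhg3 is above 0 on both scales at 6 h.

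Snhg3 overlaps other genes more than the rest do. It lies at chr4:132348014-132353686 on the minus strand of mm10, almost all within the span of Rcc1, a same-strand gene for a nuclear exchange factor, and shares 705 of its 986 exon bases with the antisense gene Gm17300. Counted with strand, 692 exon bases are free of exons of other genes, but 135 are free without it. Where these bases lie within the span of Rcc1, reads from unspliced Rcc1 RNA can be counted as Snhg3. The part of such reads in the Snhg3 results was not tested. The 2 experiments appear to be counted differently: of 30 genes that are covered by antisense exons and have at least 50 reads in the Ythdc1 libraries, 25 had 0 reads in all 6 Mettl3 libraries, against 0.512% of all genes with that many reads. That is the pattern that counting with strand in the Ythdc1 libraries and without it in the Mettl3 libraries would leave, and no Mettl3 value is given for Snhg3. Rcc1 was lower in cKO at 0 h as well, with 105 CPM in cKO and 158 CPM in control (-0.59 ± 0.072, adjusted p = 3.25e-08).

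The H/ACA snoRNA Snora73b, of the U17 family that acts in the processing of ribosomal RNA precursors, lies between exons of Snhg3 and was counted on its own. It had 541593 reads over the 12 Ythdc1 libraries. Its sequence is shown because it is the nested RNA whose level can be set beside that of its host. It is 205 nt long, from chr4:132352322-132352526 (minus strand), with the ACA box near its end in capitals, 3 bases from the 3′ end as is usual for this class.
Snora73b: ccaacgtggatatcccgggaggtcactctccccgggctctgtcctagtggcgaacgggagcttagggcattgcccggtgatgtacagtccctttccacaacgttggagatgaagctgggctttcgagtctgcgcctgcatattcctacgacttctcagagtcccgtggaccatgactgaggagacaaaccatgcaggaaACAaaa
Snora73a, its near-copy in the same host, differs at 7 of 205 positions and had 255 reads in all, with 46 of its bases free of a host exon. Reads that align to both copies cannot be assigned, so the split between them is uncertain.

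In control cells Snora73b rose while its host fell, and in cKO cells the courses were less far apart. In control libraries it was at 1924 and 1350.0 CPM at 0 h, 2778 and 5069.9 CPM at 3 h, and 6032 and 6212 CPM at 6 h. It rose relative to the typical gene by 1.26 ± 0.322 at 3 h (adjusted p = 0.0152) and by 1.90 ± 0.328 at 6 h (adjusted p = 0.00212), while Snhg3 fell to 17.3%. In cKO libraries it was at 3605 and 2746 CPM at 0 h, 2306 and 1949 CPM at 3 h, and 6824 and 6125 CPM at 6 h, and the 6 h change of 1.03 ± 0.320 was called (adjusted p = 0.0304). Its 3 h change in cKO was -0.58 (adjusted p = 0.169), beside -1.28 for Snhg3, and on the spike-in scale, where the cKO libraries of 3 h stand apart, it was 1.26, beside 0.55 for Snhg3. The control 3 h call was lost without control 0 h replicate 2 (adjusted p = 0.0927) and without control 3 h replicate 2 (adjusted p = 0.0638), and the cKO 6 h call in 6 of 12 fits with a library left out. Per spike-in read the rise in control cells was smaller, at 0.74 at 3 h, which was not called (adjusted p = 0.0786), and 0.99 at 6 h (adjusted p = 0.0242). The cKO value at 6 h was 0.07 (adjusted p = 0.858).

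At 0 h Snora73b was at 3605 and 2746 CPM in cKO libraries, against 1924 and 1350.0 CPM in control libraries, and at 3 h at 2306 and 1949 CPM in cKO, against 2778 and 5069.9 CPM in control. The groups did not overlap at either time, but neither difference passed the test (0.96 ± 0.320, adjusted p = 0.0720, and -0.88 ± 0.319, adjusted p = 0.0689). DESeq2 called both (adjusted p = 0.0159 and 0.0173). The decay difference at 3 h was called (-1.84 ± 0.452, adjusted p = 0.0349), but leaving out a library ended the call in 11 of 12 fits.

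**Figure D4:**
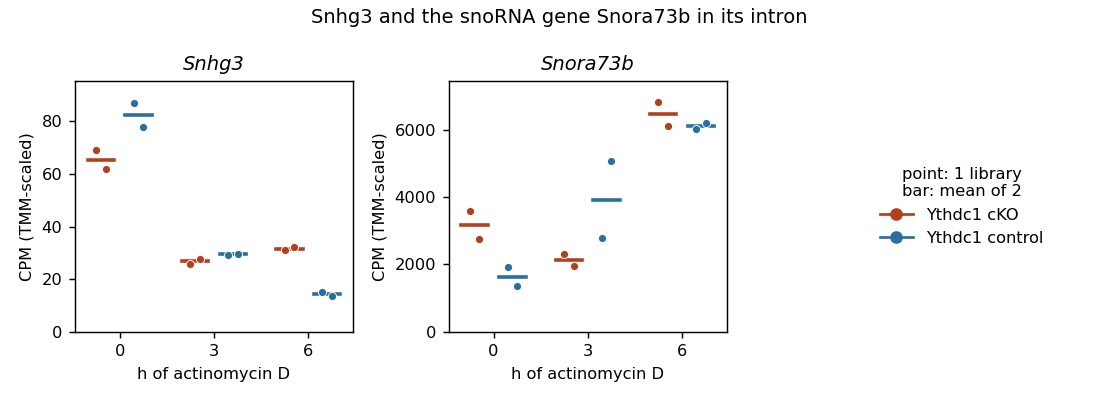
Level of Snhg3 (left) and of Snora73b, the snoRNA gene between its exons (right), as TMM-scaled CPM (vertical axes, from 0) against h of actinomycin D, with cKO left of control; each point is 1 library and each bar the mean of 2. Snhg3 is below 33 CPM in every library after the drug, while Snora73b reaches 6032 to 6824 CPM in the 4 libraries of 6 h.

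Snord87, the C/D snoRNA in Snhg6, gave 119 reads over the Ythdc1 libraries, too few for fold changes after the drug. It is 87 nt long, from chr1:9942463-9942549 (minus strand), with its C box (TGATGA) and D box (CTGA) in capitals.
Snord87: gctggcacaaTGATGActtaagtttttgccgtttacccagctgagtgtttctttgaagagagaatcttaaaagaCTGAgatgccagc
In cKO libraries it had 17 and 22 reads at 0 h, 0 and 0 after 3 h, and 2 and 5 at 6 h. In control libraries it had 34 and 30 reads at 0 h, 3 and 2 after 3 h, and 2 and 2 at 6 h. By 6 h its host kept 92.0% in cKO and 71.7% in control cells relative to the typical gene, but 46.9% in cKO and 37.9% in control per spike-in read. Mature snoRNA and precursor cannot be told apart in these counts. In the Mettl3 libraries, where levels are not comparable with the above, it had 40 and 28 reads in KO1, 43 and 31 in KO2, and 15 and 20 in control. The difference from control was called in KO2 (log2 1.00, adjusted p = 0.0242) and not in KO1 (0.68, adjusted p = 0.152). The KO2 call was lost with DESeq2 and without KO2 replicate 1 (adjusted p = 0.193), control replicate 1 (adjusted p = 0.115) or control replicate 2 (adjusted p = 0.0528).

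The lines labelled KO1 and KO2 were compared with the Mettl3 control for nuclear RNA that differs in the lines so labelled. All 6 hosts tested were higher in KO1 (23.9% of genes were called higher and 22.2% lower), and 4 of 6 were higher in KO2 (24.4% higher and 26.4% lower). Snhg5 was at 162 and 157 CPM in KO1, 116 and 112 CPM in KO2, and 91.7 and 97.7 CPM in control libraries. This was 1.69-fold higher in KO1 (log2 0.75 ± 0.045, adjusted p = 1.33e-25) and higher in KO2 as well (0.27 ± 0.046, adjusted p = 5.3e-07). Gas5 was at 333 and 357 CPM in KO1, 312 and 331 CPM in KO2, and 263 and 262 CPM in control libraries, or 0.39 ± 0.036 in KO1 (adjusted p = 4.21e-16) and 0.29 ± 0.036 in KO2 (adjusted p = 5.68e-11). The control libraries lay below all 4 knockout libraries for both genes, an order whose share among all genes was not counted.

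Snhg1 was at 111 and 115 CPM in KO1, 97.3 and 97.9 CPM in KO2, and 73.6 and 83.5 CPM in control libraries, a log2 fold change of 0.53 ± 0.050 in KO1 and 0.31 ± 0.050 in KO2. Snhg6 was at 68.4 and 61.2 CPM in KO1, 54.3 and 55.2 CPM in KO2, and 49.1 and 45.5 CPM in control libraries. Its change was 0.46 ± 0.061 in KO1 and 0.21 ± 0.062 in KO2 (adjusted p = 0.00277), and the KO2 call was lost without control replicate 2 (0.16, adjusted p = 0.0588). Part of Snhg6 overlaps the antisense gene Mcmdc2, which leaves 1019 of its 1146 exon bases free of exons of other genes on either strand.

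Snhg8 and Snhg12 differed between the lines. Snhg8 was at 30.9 and 32.2 CPM in KO1, 20.5 and 17.9 CPM in KO2, and 21.8 and 20.9 CPM in control libraries. It was higher in KO1 (0.56 ± 0.086, adjusted p = 4.75e-08) and was not called in KO2 (-0.15 ± 0.092, adjusted p = 0.167). Snhg12 was at 70.5 and 76.2 CPM in KO1, 54.5 and 60.1 CPM in KO2, and 60.2 and 60.4 CPM in control libraries, with changes of 0.28 ± 0.057 in KO1 (adjusted p = 2.21e-05) and -0.08 ± 0.058 in KO2 (adjusted p = 0.289). Set against each other, all 6 hosts were lower in KO2 than in KO1 (24.5% of genes were called lower and 21.6% higher), from -0.10 ± 0.035 for Gas5 to -0.71 ± 0.087 for Snhg8. The Gas5 difference was lost without KO1 replicate 2 (-0.06, adjusted p = 0.332) and without KO2 replicate 1 (-0.07, adjusted p = 0.277), and with DESeq2 (adjusted p = 0.0958), and the Snhg6 difference without KO1 replicate 1 (-0.16, adjusted p = 0.0797).

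Scaling to spike-in reads left all 6 higher in KO1 (34.8% of all genes were called higher) and made all 6 higher in KO2 (56.7% called higher), beside medians of 0.17 and 0.53 for all genes. Between the lines it left 1 host, Snhg8, lower in KO2 (7.63% of genes called lower) and made Gas5 and Snhg1 higher (48.1% called higher). The 9 fibroblast feeder markers summed to 193 to 198 CPM in KO1, 514 to 517 CPM in KO2 and 201 to 218 CPM in control libraries. The 8 mitochondrial mRNAs summed to 8685 to 8774 CPM in KO1, 9492 to 9712 CPM in KO2 and 4417 to 5210 CPM in control libraries. The part of these RNAs in the host results was not tested.

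**Figure D5:**
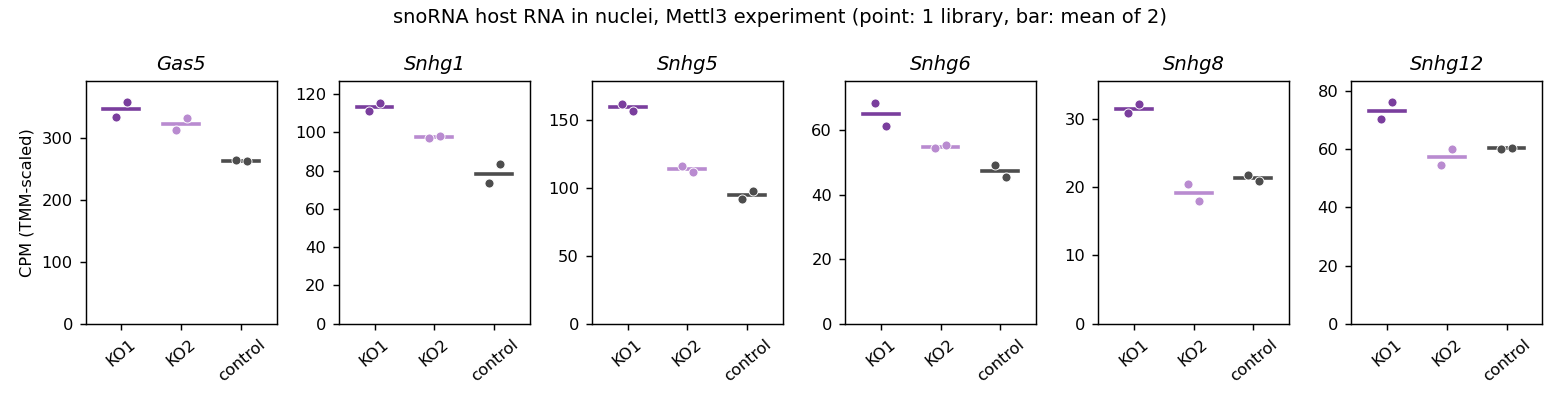
Level of the 6 hosts tested in the Mettl3 experiment as TMM-scaled CPM (vertical axes, from 0) in KO1, KO2 and control libraries; each point is 1 library and each bar the mean of 2. Every KO1 library lies above both control libraries for all 6 hosts, while the KO2 libraries of Snhg8 and Snhg12 lie below both controls. For Snhg12 the margin is as narrow as 60.1 CPM in KO2 against 60.2 CPM in control. The share of all genes in such an order was not counted.

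Other long noncoding snoRNA hosts were read beside these. Of 12 tested in the Ythdc1 libraries, 7 fell and 1 rose in control cells by 6 h (31.7% of all genes were called lower and 33.1% higher), or 12 fell and 0 rose on the spike-in scale (63% lower and 7.33% higher), with a TMM median log2 change of -0.91, against -1.93 for the 7 hosts above. Zfas1, host of C/D snoRNAs, had 33.6 CPM at 6 h, against 126 CPM at 0 h (-1.91 ± 0.081, adjusted p = 1.2e-21). Snhg17 changed by -1.17 ± 0.071, and Snhg11 rose by 0.72 ± 0.070, though not on the spike-in scale (-0.20). In cKO against control at 6 h, 1 of the 12 was higher and 4 lower (19.7% of all genes were called higher and 22.7% lower). On the spike-in scale 1 was higher and 7 lower (6.59% and 46.5%). Snhg17 was lower in cKO (-0.68 ± 0.078), with 47.2 CPM in cKO and 77.0 CPM in control. Rian, a snoRNA host of the imprinted Dlk1-Meg3 domain, was higher (0.63 ± 0.065), with 160 CPM in cKO and 103 CPM in control. Before the drug Snhg17 was already lower in cKO (-0.34 ± 0.069) and Rian higher (0.38 ± 0.064). In KO1, 3 of 11 were higher and 3 lower (of all genes 23.9% and 22.2%), and in KO2 3 were higher and 2 lower (of all genes 24.4% and 26.4%). With spike-in scaling 6 were higher and 3 lower in KO1 (of all genes 34.8% and 13.7%) and 8 higher and 2 lower in KO2 (of all genes 56.7% and 6.69%). Their medians by TMM were 0.13 in KO1 and -0.02 in KO2, against 0.49 and 0.24 for the 6 hosts above. Rian was lower in both Mettl3 lines, with 61.3 CPM in KO1, 221 CPM in KO2 and 406 CPM in control libraries. Dancr was higher in KO1 (0.91 ± 0.068) and Zfas1 in KO2 (0.49 ± 0.049).

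Protein-coding snoRNA hosts were described in the same way. Of 68 tested, 36 rose and 26 fell in cKO cells by 6 h relative to the typical gene, with a median of 0.37 (29.6% of all genes were called higher and 31.3% lower). In control cells 34 rose and 26 fell, with a median of 0.13 (33.1% higher and 31.7% lower). On the spike-in scale 13 rose and 45 fell in cKO, with a median of -0.60 beside -0.96 for all genes (3.28% called higher and 68.4% lower), and 10 rose and 48 fell in control, with a median of -0.79 beside -0.88 (7.33% higher and 63% lower). In KO1, where the median was 0.18, 41 of 68 were higher and 10 lower (of all genes 23.9% were higher and 22.2% lower), or 53 higher and 7 lower when scaled to spike-in reads (34.8% and 13.7%). In KO2, where it was -0.09, 21 were higher and 33 lower (24.4% and 26.4%), or 63 higher and 2 lower when scaled to spike-in reads (56.7% and 6.69%).

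Genes for the proteins that bind, process or destroy these RNAs were described by the same test. The shares of all genes called, against which their counts stand, were 13.5% higher and 15.8% lower in cKO at 0 h, 23.9% and 22.2% in KO1, and 24.4% and 26.4% in KO2. On the spike-in scale they were 4.41% higher and 42.3% lower in cKO at 0 h, 34.8% and 13.7% in KO1, and 56.7% and 6.69% in KO2. Of 21 snoRNP and snoRNA processing factors, 1 was higher and 11 lower in cKO at 0 h, with a median of -0.23, beside a median of 0.01 for all genes, or 0 higher and 19 lower when scaled to spike-in reads. Nhp2, a core H/ACA protein, had 141 CPM in cKO and 206 CPM in control (-0.55 ± 0.057), and Nop56, a core C/D protein, 482 CPM in cKO and 630.5 CPM in control (-0.39 ± 0.051). In KO1, 13 of 21 were higher and 3 lower, or 15 and 1 when scaled to spike-in reads, and in KO2 7 were higher and 11 lower, or 17 and 1. Nhp2 was higher in both lines, by 0.82 ± 0.043 in KO1 and 0.71 ± 0.044 in KO2. Of 16 nonsense-mediated decay factors, 3 were higher and 5 lower in cKO at 0 h, among them Rbm8a of the exon junction complex (-0.64 ± 0.075), or 0 higher and 13 lower on the spike-in scale. In KO1, 8 were higher and 4 lower, or 12 and 2 on that scale, and in KO2 4 were higher and 5 lower, or 14 and 1. Upf1, the helicase central to this decay, was lower in both lines, with 113 CPM in KO1, 125 CPM in KO2 and 201 CPM in control libraries. Of 21 nuclear RNA decay genes tested, 1 was higher and 5 lower in cKO at 0 h, with the exosome subunit Exosc5 at -0.69 ± 0.082, or 0 higher and 20 lower on the spike-in scale. In KO1, 9 were higher and 6 lower, or 14 and 3 on that scale, and in KO2 4 were higher and 10 lower, or 19 and 0.

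Levels of the hosts were also set against each other. Over the 12 Ythdc1 libraries, which share the drug's time course, Gas5 correlated with Snhg1, Snhg5 and Snhg12 at Pearson's r of 0.995, 0.994 and 0.990 in log2 CPM, and with Snhg3, Snhg6 and Snhg8 at 0.896, 0.758 and 0.651. Snhg3 correlated with Snhg6 at 0.902, and the lowest of the 21 values were those of Snhg8 with Snhg3 (0.361) and Snhg6 (0.214). The 5 genes whose log2 CPM followed the mean of 6 hosts most closely over all 18 libraries, out of 9210 genes ranked, were Hist1h3c (r = 0.973), Cdk12 (0.967), Zfp296 (0.961), Kat6b (0.958) and Zfas1 (0.957). Within the 6 Mettl3 libraries alone, which hold no time course, the values were 0.931 for Hist1h3c, 0.811 for Cdk12, -0.0017 for Zfp296, 0.963 for Kat6b and 0.712 for Zfas1.

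GGACT, a common form of the sequence that METTL3 methylates, was counted in the annotated transcript with most exons of each host, on the strand of the RNA. It occurred once in Gas5 (502 bases) and once in Snhg6 (473 bases), and was not found in the transcripts of the other 5, which were 332 to 781 bases long. Among all genes tested, 85.3% had at least 1 GGACT in such a transcript, with a median of 1.03 per kb, beside 1.99 in Gas5 and 2.11 in Snhg6. Whether a transcript holds a match depends on its length, and lengths were not matched. Presence in the hosts can therefore not be set against that share. The introns that also enter the counts were not searched.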

How the data were processed

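Raw HTSeq counts for each gene were deposited by the authors for 18 libraries of nuclear RNA. Per the submitters' processing notes, CASAVA, Trimmomatic 0.38, HISAT2 2.1.0 and HTSeq were used with mm10; which strand setting or annotation was used is not given there. Per the labels, libraries were made with a SMARTer stranded total RNA kit after RiboMinus depletion. The deposited counts give ambiguous and multiply aligned reads in separate rows, outside any gene. Reads assigned to no gene made up 18.0% to 53.6% of uniquely placed reads and stayed out of library sizes. Symbols, exons and nested snoRNAs came from GENCODE M21; starts came from RefSeq (GRCm38.p6).

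The 12 Ythdc1 and 6 Mettl3 libraries were fitted separately with edgeR 4.0.16 in R 4.3.3 (1 coefficient per group, TMM, a minimum count of 10, robust quasi-likelihood F test), tested on simulated data. Spike-in scaling used the sum of ERCC reads, 3932 to 33396 per library. Length for CPM per kb is that of exon bases free of exons of other genes. Log2 CPM for correlations used a pseudocount of 0.5. Replicates differed by more than read sampling, at a chi-square of 1.75 to 6.72 for each degree of freedom, and the biological coefficient of variation was 6.52% and 4.09%. Alternatives were DESeq2 1.42.0 and its size factors, library size alone, spike-in scaling, no filter, 50 reads in 2 libraries, a replicate block and each library left out. The genes named are the hosts, Ythdc1, Mettl3, nested snoRNAs averaging at least 10 reads in an experiment, the 5 genes most like the mean host course (log2 CPM centred within each experiment, mean CPM of at least 10), and some of the 3 called members of each list with the lowest p in that comparison. Members, lists and tests were chosen with earlier results of these data known, so counts of lists are not independent evidence.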

Additional observations from a re-analysis of the deposited data

Results flagged for a closer look

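A number of hosts changed differently in the 2 genotypes or in the 2 Mettl3 lines by a test of the difference itself (edgeR's quasi-likelihood test). From 0 h to 3 h, the log2 change in cKO minus that in control was -0.36 for Gas5, -0.67 for Snhg1 and -1.23 for Snhg8, and -1.84 for the nested snoRNA Snora73b. All 4 turned positive when scaled to spike-in reads. From 0 h to 6 h it was 0.41 for Gas5, 1.48 for Snhg3, 0.45 for Snhg5 and 0.36 for Snhg6, and all 4 stayed positive on the spike-in scale.

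Against the same Mettl3 control, KO2 minus KO1 was -0.10 for Gas5, -0.22 for Snhg1, -0.48 for Snhg5, -0.25 for Snhg6, -0.71 for Snhg8 and -0.36 for Snhg12. Scaled to spike-in reads, Snhg5 and Snhg8 stayed negative and the other 4 were positive. Groups of 2 libraries are too small for a check of single outlying libraries.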

How the results depend on the processing

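Of 81 log2 fold changes of hosts in 12 comparisons, 73 kept their direction, and 50 their direction and call, under every setting run except spike-in scaling. The cause of the changes below was not tested, and 2 libraries per group limit all of them.

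Under spike-in scaling, cKO against control at 0 h had 0 hosts higher and 6 lower, with Snhg1 at -0.27. At 3 h it had 7 higher and 0 lower: Gas5 1.58, Snhg1 1.43, Snhg3 1.86, Snhg5 1.76, Snhg8 1.17 and Snhg12 1.48, with Snora73b at 1.11 and Ythdc1 at 0.21. At 6 h it had 1 higher and 3 lower, with Gas5 at -0.053, Snhg1 at -0.12, Snhg5 at -0.17, Snhg6 at -0.22 and Snora73b at -0.34. In control cells at 6 h against 0 h Snhg8 was at -0.90 and Snhg11 at -0.20. In cKO cells at 3 h against 0 h, 2 hosts were higher, with Snhg3 at 0.55, Snhg6 at 1.72, Snhg8 at 0.28 and Snora73b at 1.26. The decay difference at 3 h had 7 higher and 0 lower, with Gas5 at 2.00, Snhg1 at 1.70, Snhg5 at 2.33, Snhg8 at 1.13, Snhg12 at 2.06, Snora73b at 0.52 and Ythdc1 at 0.65, and that at 6 h had 2 higher. Mettl3 was at 0.085 in KO1. In KO2 against control Snhg8 was at 0.41 and Snhg12 at 0.49, and KO2 against KO1 had 2 higher and 1 lower, with Gas5 at 0.28, Snhg1 at 0.16, Snhg6 at 0.13 and Snhg12 at 0.024.

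Among the other settings, cKO against control at 0 h had 0 hosts higher with the DESeq2 size factors, with library size alone and with DESeq2, and 3 lower with library size alone and 2 with no filter. At 6 h it had 5 higher with library size alone and with no filter. Values near 0 changed sign: Snhg8 at 6 h (0.080 with library size alone, 0.011 with DESeq2, 0.068 with no filter), Snhg12 at 6 h (0.0040 with library size alone), Snhg6 at 3 h (-0.0027 with 50 reads in 2 libraries) and Snhg5 in the decay difference at 3 h (0.0030 with no filter). Snhg8 in control cells at 6 h was at -0.034 with the DESeq2 size factors, -0.17 with library size alone, -0.049 with DESeq2, -0.020 with no filter and -0.053 with 50 reads in 2 libraries. KO2 against control had 2 hosts lower with library size alone. The shares of all genes called under these other settings were not computed, so these counts cannot be set against them.

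With each library left out in turn, cKO against control at 0 h had 0 to 2 hosts higher and 0 to 4 lower, with Gas5 from -0.21 to 0.094, Snhg1 from -0.063 to 0.24 and Ythdc1 from -0.20 to 0.042. At 3 h Snhg6 ran from -0.035 to 0.065, and at 6 h Snhg8 from -0.28 to 0.30 and Snhg12 from -0.17 to 0.027. Snhg8 in control cells at 6 h ran from -0.31 to 0.27. The decay difference of Snhg5 at 3 h ran from -0.14 to 0.080 and that of Snhg12 at 6 h from -0.037 to 0.26. Mettl3 in KO1 ran from -0.19 to 0.0084. A group left with 1 library was assumed to vary like the others.

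Replicates with the same number deviated together weakly at most, with correlations of -0.01 to 0.19 over 15 pairs of Ythdc1 groups and -0.04 to 0.0044 over 3 pairs of Mettl3 groups. This does not show whether libraries of the same number share a culture. The replicate block changed no count of hosts, and of all values ended 1 call, that of Snora73b in the decay difference at 3 h (-1.85, adjusted p = 0.0556).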
